A study of Mus musculus with 24 samples.

Results

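Chondroitin sulfate is a sugar chain built on proteoglycan core proteins, and the enzymes that polymerise and sulfate it were followed here in normal mouse retinas and in retinas with a rhodopsin mutation. The set held 9 genes: Csgalnact1, Csgalnact2, Chsy1 and Chpf for chain assembly, and Chst11, Chst12, Chst3, Chst7 and Ust for sulfation. Members were every probe set whose transcript identifier matched 1 of these genes, which gave 10 probe sets of the 1246 on the array, and 9 of its 909 named genes. Ust had 2 probe sets and every other member had 1.

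Retinal RNA was hybridised to a focused Affymetrix glycobiology array, and each of 8 groups had 3 arrays (24 in all). Normal mice were compared with mice labelled P347S+, a transgenic retinitis pigmentosa line with a proline-to-serine change in rhodopsin, each month from 1 to 4 months. Per the series' design text, rod loss is barely visible at 1 month and is advanced at 4 months. The promoter and copy number of the transgene and the strain are not given in the sources used here, sex is given as unknown, and no treatment is named. The labels do not state that replicate arrays are different animals, and each p therefore measures only the spread between samples, which may be technical. Values are RMA signals on the log2 scale, in which background-corrected and normalized probe intensities are summarised per probe set, and 1 unit is a doubling. A gene said to fall or rise was lower or higher in P347S than in normal retinas, except where months are compared. In whole retina, fewer cells of a type and less RNA per cell cannot be told apart. The same holds for a larger share of cells of a type and more RNA per cell.

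Chondroitin sulfate chains start from a short linkage sugar sequence that they share with heparan sulfate. Initiating enzymes add the first N-acetylgalactosamine, polymerases then alternate it with glucuronic acid, and sulfotransferases set the sulfation pattern, at the 4-O or 6-O position of N-acetylgalactosamine or the 2-O position of the uronic acid. In the central nervous system the chains are known from the extracellular matrix, from perineuronal nets and from the matrix around injuries, and in the eye also from the matrix around photoreceptors. The pattern of sulfation is known to change which proteins bind the chains.

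Array medians lay between 5.15 and 5.34. Grifin, a gene known from the lens, read above 10 in 3 arrays (normal 2 months replicate 2, P347S 2 months replicate 2 and normal 4 months replicate 1, 10.16 to 11.33) against 5.69 to 8.77 in the other 21. Of 6 markers of connective tissue, sclera and choroid 3 were measured and none passed over the 4 ages. Of these Dcn read 6.45 to 6.90 in normal 2 months replicates 2 and 3 and P347S 4 months replicate 3, and 3.77 to 5.87 in the other 21 arrays, so that Grifin and Dcn were also used as covariates. Calls lost without the 3 arrays with high Grifin are named below. Of the rod markers only Gnb1, a transducin subunit that other cells also express, was on the array. It read 12.62 to 13.26 in all arrays and fell by 0.21 ± 0.06 (limma, adjusted p = 0.0121). No marker of Müller glia and astrocytes, cones, bipolar and amacrine cells or pigment epithelium was measured, so the labelled tissue could be checked only in part. All 4 measured of 9 microglial markers rose in P347S retinas, and their summed signal ran from 7.99 to 8.37 (log2) in normal and from 8.66 to 9.66 in P347S arrays. Of 7 endothelial and pericyte markers 4 were measured and 2 rose, with summed signals of 7.15 to 7.51 and 7.20 to 7.89. The part of other cells in the results below was not tested.

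The 250 bases upstream of the annotated start are shown for 5 members that differed between the genotypes. In P347S retinas Csgalnact2 and Chsy1 were both lower than in normal ones, and Chst3 was lower while Chst11 and Ust were higher. They come from RefSeq on mouse build GRCm38.p6, which had an entry for 8 of the 9 members. A search for 5 motifs was run on both strands, and capitals mark the matches. The motifs were the CRX core TAATCC (in 6.25% of all 32851 windows of this length), the NRL and MAF core TGCTGA (16.1%), the E-box CACGTG (6.02%), the CRE TGACGTCA (1.55%) and the AP-1 site TGANTCA (6.75%). The window of Csgalnact2 is chr6:118139141-118139390 (minus strand), that of Chsy1 chr7:66109242-66109491 (plus), that of Chst3 chr10:60219261-60219510 (minus), that of Chst11 chr10:82985247-82985496 (plus) and that of Ust chr10:8518826-8519075 (minus).
Csgalnact2: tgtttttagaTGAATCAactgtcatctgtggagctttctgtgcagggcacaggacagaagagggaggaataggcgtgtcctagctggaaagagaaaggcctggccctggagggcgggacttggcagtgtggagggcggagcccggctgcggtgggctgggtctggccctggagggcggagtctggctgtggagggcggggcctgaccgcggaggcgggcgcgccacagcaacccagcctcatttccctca
Chsy1: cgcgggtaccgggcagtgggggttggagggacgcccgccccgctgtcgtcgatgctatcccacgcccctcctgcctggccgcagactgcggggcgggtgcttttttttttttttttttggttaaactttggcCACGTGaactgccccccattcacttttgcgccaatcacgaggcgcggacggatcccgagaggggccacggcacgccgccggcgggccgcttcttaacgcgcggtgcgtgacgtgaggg
Chst3: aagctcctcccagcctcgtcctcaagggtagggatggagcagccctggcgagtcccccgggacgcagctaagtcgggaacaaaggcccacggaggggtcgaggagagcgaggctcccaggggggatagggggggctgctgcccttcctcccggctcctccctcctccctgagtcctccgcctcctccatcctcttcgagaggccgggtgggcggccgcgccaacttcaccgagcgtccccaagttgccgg
Chst11: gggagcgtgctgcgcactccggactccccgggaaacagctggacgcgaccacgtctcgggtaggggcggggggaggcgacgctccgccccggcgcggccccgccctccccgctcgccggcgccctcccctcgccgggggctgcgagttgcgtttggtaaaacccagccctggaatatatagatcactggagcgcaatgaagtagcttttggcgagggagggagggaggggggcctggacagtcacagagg
Ust: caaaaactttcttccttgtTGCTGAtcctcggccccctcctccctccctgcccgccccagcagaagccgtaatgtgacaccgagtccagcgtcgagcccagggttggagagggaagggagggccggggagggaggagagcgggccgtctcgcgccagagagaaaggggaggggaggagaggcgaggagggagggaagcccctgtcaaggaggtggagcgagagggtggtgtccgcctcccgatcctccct
Positions are counted back from the start. The printed Csgalnact2 window, that of 1 of its 2 RefSeq starts, held an AP-1 match at -240 to -234. The window of its other start (chr6:118138831-118139080, minus strand) is not printed and had no match. The Chsy1 window held an E-box at -118 to -113 and the Ust window an NRL and MAF core at -231 to -226. Csgalnact2 and Chsy1 shared none of the 5 motifs in these windows. Chst3, Chst11 and Chst12 had no match. Of the windows not printed, Chpf had an NRL and MAF core at -115 to -110 and CREs at -86 to -79 and -41 to -34, and Chst7 had an NRL and MAF core at -95 to -90. Such matches are descriptions of the letters and not binding sites.

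The genotype comparison asked which enzymes differed between P347S and normal retinas, over the 4 ages and at each. Over the 4 ages 6 of the 9 members differed, 3 lower (Chst3, Chsy1 and Csgalnact2) and 3 higher (Ust, Chst11 and Csgalnact1), where 22.6% of all probe sets passed the test (13.8% higher and 8.83% lower). The test was limma's moderated test on all 24 arrays, adjusted by Benjamini-Hochberg over the 1246 probe sets, with a threshold of 0.05. The median absolute difference was 0.20 over the 9 members and 0.08 over all probe sets. All members but Chst7 were brighter than most probe sets (from 68.4% dimmer for Csgalnact1 to 94.5% for Chsy1). The shares and medians over all probe sets, here and below, were not matched for signal. Both initiating enzymes moved, in opposite directions, and so did the 6-O-sulfotransferase Chst3 and the 4-O-sulfotransferase Chst11. Chpf, Chst12 and Chst7 did not pass at any age.

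At 1 month no member passed limma's test, and none had an unadjusted p under 0.05 (background 0.321% of probe sets called, and 115 of 1246 under 0.05 unadjusted). At 2 months Chst3 passed, lower, against 3.45% of all probe sets (1.93% lower). Leaving out the 3 arrays with high Grifin takes out replicate 2 of both genotypes at 2 months. The 2-month differences of Chsy1, Csgalnact2, Chst11 and Csgalnact1 were then -0.33, -0.31, 0.29 and 0.13 (from -0.13, -0.18, 0.19 and 0.04). None of them was called (adjusted p = 0.382, 0.206, 0.561 and 0.882). Those of Ust and Chst3 were smaller than reported, 0.32 (from 0.37, adjusted p = 0.634) and -0.46 (from -0.63, 0.172). At 3 months Chst3, Chsy1 and Csgalnact2 passed, all lower, where 6.66% of all probe sets were called higher and 5.38% lower. At 4 months the same 6 members passed as over the 4 ages, 3 in each direction, against 12.9% (9.47% higher and 3.45% lower). The median absolute difference at 4 months was 0.42 over the members and 0.12 over all probe sets.

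**Figure D1:**
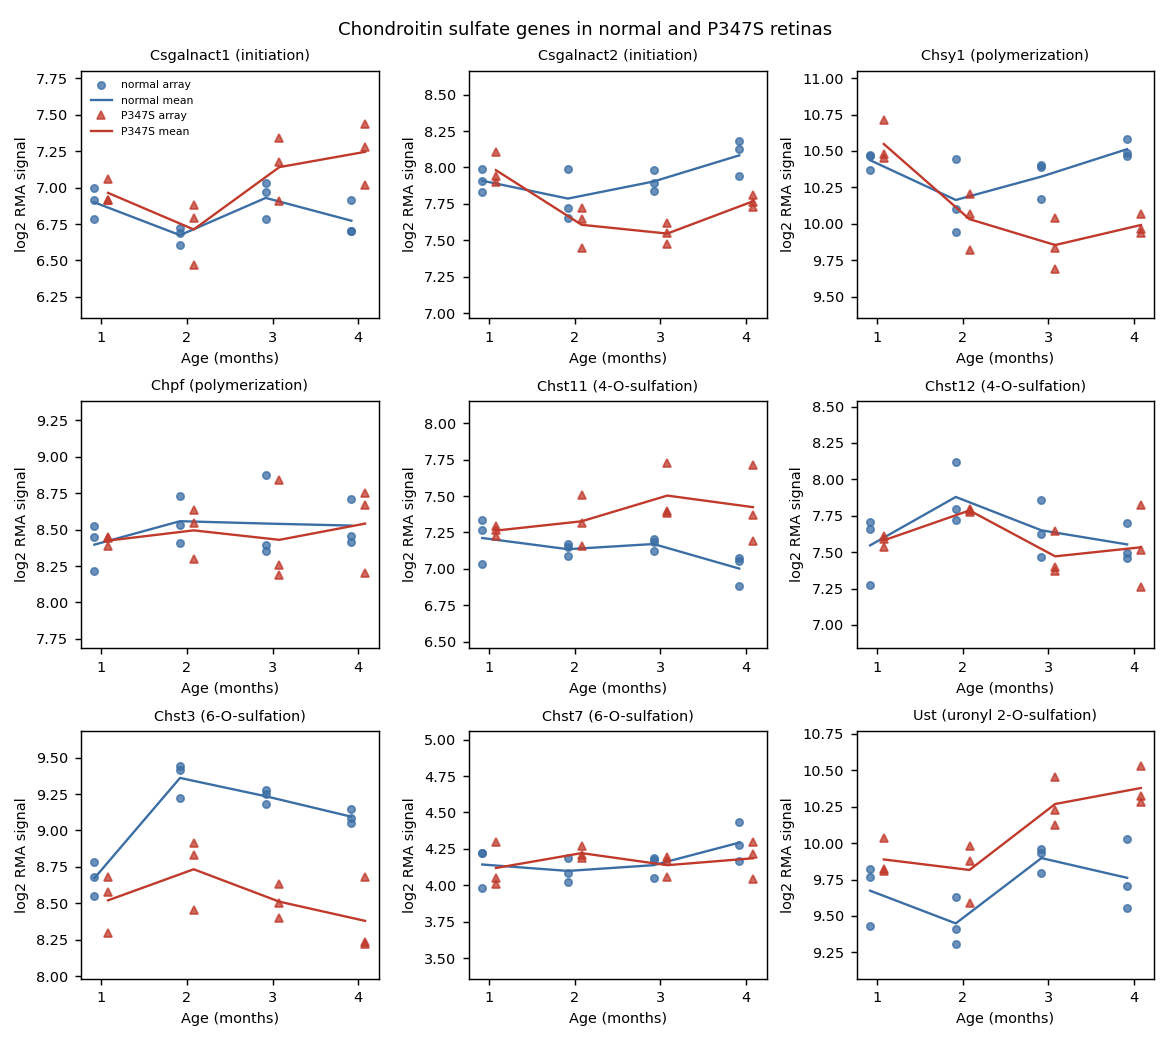
log2 RMA signal of each of the 9 members (vertical axis, own range per panel) against age in months, with 1 point per array and lines through the means of 3 arrays. Chst3 lies lower in every P347S array from 2 months on, Chsy1 and Csgalnact2 lie lower and Chst11 and Ust higher at 3 and 4 months, and Csgalnact1 lies higher at 4 months.

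The initiating enzyme Csgalnact2, which adds the first N-acetylgalactosamine to the linkage region, fell in P347S retinas by 0.20 ± 0.05 over the 4 ages (SE, 1.14-fold, limma, adjusted p = 0.00427). At 1 month its arrays read 7.90, 7.99 and 7.83 in normal and 7.90, 7.94 and 8.10 in P347S retinas. At 2 months they read 7.72, 7.65 and 7.99 against 7.45, 7.72 and 7.65. The genotypes overlapped at both ages, and neither difference passed (0.07, adjusted p = 0.919, and -0.18, adjusted p = 0.392). At 3 months the normal arrays read 7.98, 7.84 and 7.89 and the P347S arrays 7.62, 7.47 and 7.55. At 4 months the values were 7.94, 8.18 and 8.12 against 7.73, 7.81 and 7.77. All P347S arrays of these ages were below all normal arrays of their age, as for 4.98% of all probe sets, and the differences were -0.36 ± 0.09 (adjusted p = 0.0179) and -0.32 ± 0.09 (adjusted p = 0.0262). The call at 3 months was lost without normal 3 months replicate 1 (adjusted p = 0.0736), P347S 3 months replicate 2 (0.0658) or replicate 3 (0.0536), and with the 3-month arrays alone (0.0686). That at 4 months was lost without normal 4 months replicate 2 (0.116) or 3 (0.10) or P347S 4 months replicate 1 (0.0910), 2 (0.0502) or 3 (0.0582), and when only the 4-month arrays were fitted (0.0709).

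Csgalnact1, the other initiating enzyme, moved the opposite way. It was higher in P347S retinas by 0.20 ± 0.06 over the 4 ages (1.15-fold, limma, adjusted p = 0.0224), a call that was lost when the arrays were quantile normalized again (0.09, adjusted p = 0.211). At 1 month the normal arrays read 6.92, 6.78 and 7.0 and the P347S arrays 6.92, 6.92 and 7.06, and at 2 months 6.69, 6.61 and 6.72 against 6.79, 6.47 and 6.88. At 3 months the values were 7.03, 6.78 and 6.97 against 6.91, 7.18 and 7.34. The genotypes overlapped at these 3 ages, and the differences of 0.06, 0.04 and 0.21 did not pass (adjusted p = 0.964, 0.925 and 0.253). At 4 months the normal arrays read 6.70, 6.92 and 6.70 and the P347S arrays 7.44, 7.28 and 7.02. Every P347S array was then above every normal one (as for 17.1% of probe sets), by 0.47 ± 0.12 (1.39-fold, adjusted p = 0.0113). This call was lost without normal 4 months replicate 1 (0.0540) or 3 (0.0564) or P347S 4 months replicate 1 (0.0768), and with the 4-month arrays alone (0.0563).

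Chsy1, a chondroitin synthase that carries the activities for both sugars of the repeat, fell by 0.25 ± 0.06 over the 4 ages (1.19-fold, limma, adjusted p = 0.0041). At 1 month its arrays read 10.46, 10.48 and 10.37 in normal and 10.45, 10.48 and 10.72 in P347S retinas. At 2 months they read 10.10, 9.94 and 10.44 against 9.82, 10.21 and 10.07. The genotypes overlapped at both ages, with differences of 0.11 (adjusted p = 0.911) and -0.13 (adjusted p = 0.669). At 3 months the values were 10.41, 10.17 and 10.39 against 10.04, 9.69 and 9.83, and at 4 months 10.49, 10.58 and 10.47 against 10.07, 9.97 and 9.94. All P347S arrays of these 2 ages lay below the normal arrays of their age, as for 4.98% of all probe sets. The differences were -0.47 ± 0.12 at 3 months (adjusted p = 0.0153) and -0.52 ± 0.12 at 4 months (1.44-fold, adjusted p = 0.00552). The call at 3 months was lost without normal 3 months replicate 1 (0.0636) or P347S 3 months replicate 2 (0.0761) or 3 (0.0536), and with the 3-month arrays alone (0.0720).

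Chpf, the chondroitin polymerising factor that works with the synthases, read between 8.19 and 8.88 in all arrays. The genotypes overlapped at each age, and the difference over the 4 ages was -0.03 ± 0.09 (95% interval -0.21 to 0.14, limma, adjusted p = 0.803). The interval leaves room for a change as large as the fall of Csgalnact2.

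Chst11, which sulfates N-acetylgalactosamine at the 4-O position, was higher in P347S retinas by 0.25 ± 0.06 over the 4 ages (1.19-fold, limma, adjusted p = 0.00413). At 1 month the normal arrays read 7.34, 7.04 and 7.26 and the P347S arrays 7.23, 7.29 and 7.27, and at 2 months 7.15, 7.17 and 7.09 against 7.31, 7.16 and 7.51. The genotypes overlapped at both ages, with differences of 0.05 (adjusted p = 0.966) and 0.19 (adjusted p = 0.474). At 3 months the values were 7.12, 7.19 and 7.21 against 7.38, 7.40 and 7.73, and at 4 months 7.05, 7.07 and 6.88 against 7.71, 7.37 and 7.19. The P347S arrays of both ages were all above the normal ones, as for 9.31% of probe sets. The difference of 0.33 ± 0.12 at 3 months missed the threshold (adjusted p = 0.0713) and passed it with each array centred on its median (adjusted p = 0.0280) or without P347S 4 months replicate 1 (0.0380) or 3 (0.0481). That of 0.42 ± 0.12 at 4 months passed (1.34-fold, adjusted p = 0.0202). It was lost without normal 4 months replicate 3 (0.36, adjusted p = 0.105) or P347S 4 months replicate 1 (0.28, adjusted p = 0.144), and with the 4-month arrays alone (0.107). After quantile normalization it was 0.28 and still passed (0.0358).

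Chst12, the other 4-O-sulfotransferase of the set, read 7.26 to 8.12 with overlapping genotypes at each age. Its difference over the 4 ages was -0.06 ± 0.07 (95% interval -0.21 to 0.08, limma, adjusted p = 0.53), an interval that does not reach the rise of Chst11. A test of the difference between the enzymes themselves was not run.

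Chst3, a 6-O-sulfotransferase of chondroitin, had the largest difference of the 9 members over the 4 ages and at each age from 2 months on. It was lower in P347S retinas by 0.55 ± 0.06 (1.47-fold, limma, adjusted p = 2.39e-06). At 1 month the normal arrays read 8.79, 8.55 and 8.68 and the P347S arrays 8.68, 8.58 and 8.30, which overlapped (-0.15, adjusted p = 0.851). At 2 months the values were 9.44, 9.42 and 9.22 against 8.83, 8.46 and 8.92. At 3 months they were 9.18, 9.28 and 9.25 against 8.63, 8.50 and 8.40, and at 4 months 9.15, 9.05 and 9.08 against 8.68, 8.22 and 8.24. From 2 months on, each P347S array was below all normal arrays of its age (8.35%, 19.4% and 12.9% of probe sets did so at 2, 3 and 4 months). The differences were -0.63 ± 0.13 (1.54-fold, adjusted p = 0.00755), -0.72 ± 0.13 (1.65-fold, adjusted p = 0.00155) and -0.72 ± 0.13 (1.64-fold, adjusted p = 0.000768). The call at 2 months was lost without the 3 arrays with a high Grifin signal (-0.46, adjusted p = 0.172), with Grifin and Dcn signals as covariates (-0.70, 0.0504), without P347S 2 months replicate 2 (-0.49, 0.0667), with the 2-month arrays alone (0.132), and with these paired by replicate number (0.0634). Dcn differed by -1.48 between the genotypes at this age (adjusted p = 0.126).

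The order of the Chst3 group means began with normal retinas of 2, 3 and 4 months (9.36, 9.23 and 9.09). P347S at 2 months (8.73) and normal at 1 month (8.67) followed, and P347S at 1, 3 and 4 months came last (8.52, 8.51 and 8.38). Neighbours in this order overlapped except normal retinas of 3 and 4 months (lowest 9.18 against highest 9.15) and the step from normal at 4 months (lowest 9.05) to P347S at 2 months (highest 8.92). The rise from 1 to 4 months in normal retinas was 0.42 ± 0.13 and did not pass (limma, adjusted p = 0.262, unadjusted p = 0.00341). In P347S retinas the same difference was -0.14 ± 0.13 (adjusted p = 0.725).

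Chst7, a further 6-O-sulfotransferase, gave little signal. Its values of 3.98 to 4.43 lay below those of most probe sets (31.9% were dimmer by mean signal), and no detection calls were used here, so a low or absent transcript cannot be told from background. The difference over the 4 ages was -0.002 ± 0.05 (95% interval -0.10 to 0.09, limma, adjusted p = 0.977). At 2 months its P347S arrays (4.21, 4.19 and 4.27) were all above the normal ones (4.18, 4.02 and 4.09), as for 9.07% of probe sets, without passing the test (0.12, adjusted p = 0.583).

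Ust, which sulfates the uronic acid at the 2-O position, had the largest rise of the members. On its brighter probe set it was higher by 0.39 ± 0.07 over the 4 ages (1.31-fold, limma, adjusted p = 0.000195). At 1 month the normal arrays read 9.82, 9.43 and 9.76 and the P347S arrays 9.81, 10.04 and 9.82, and at 2 months 9.63, 9.41 and 9.31 against 9.98, 9.88 and 9.59. The genotypes overlapped at both ages, with differences of 0.21 (adjusted p = 0.721) and 0.37 (adjusted p = 0.145). At 3 months the values were 9.94, 9.79 and 9.96 against 10.13, 10.23 and 10.45, and at 4 months 9.70, 10.03 and 9.56 against 10.53, 10.28 and 10.32. All P347S arrays of 3 and 4 months were above the normal ones of their age, as for 9.31% of probe sets. The differences were 0.37 ± 0.13 (adjusted p = 0.0752, which missed the threshold) and 0.62 ± 0.13 (1.53-fold, adjusted p = 0.00388). Both Ust probe sets carry a suffix (s for this one, x for the other) for probes that could also match further transcripts. That second probe set was higher by 0.26 ± 0.06 over the 4 ages (adjusted p = 0.0017) and by 0.44 ± 0.11 at 4 months (adjusted p = 0.0107), again without overlap at 3 and 4 months.

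**Figure D2:**
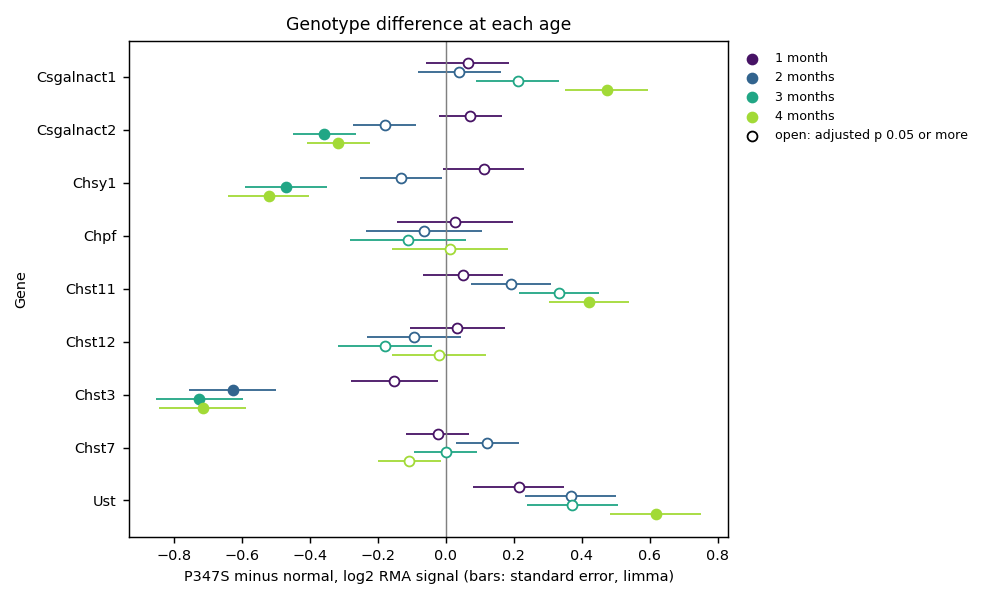
P347S minus normal difference of log2 RMA signal (horizontal axis) for the 9 members at 1, 2, 3 and 4 months, with bars for limma's standard error and filled points where the adjusted p was under 0.05. No point is filled for 1 month, 1 for 2 months, 3 for 3 months and 6 for 4 months, and Chst3 lies farthest to the left from 2 months on.

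The differences at 4 months were then set against those at 1 month, which asks whether the genotype difference itself changed with age. No member passed this test in limma, where 0.241% of all probe sets did, while 6 members had an unadjusted p under 0.05, as had 142 of all 1246 probe sets. For Chsy1 the difference moved by -0.63 ± 0.17 (adjusted p = 0.0869), for Chst3 by -0.56 ± 0.18 (0.156) and for Csgalnact2 by -0.39 ± 0.13 (0.167). For Csgalnact1, Ust and Chst11 it moved by 0.41 ± 0.17, 0.40 ± 0.19 and 0.37 ± 0.17 (adjusted p = 0.355, 0.427 and 0.401). In the F test over all 4 ages no member passed either, against 0.321% of probe sets, and Chsy1, Chst3 and Csgalnact2 had an unadjusted p under 0.05 (0.0036, 0.0135 and 0.0159), as had 180 of all 1246 probe sets. A call at 4 months and none at 1 month is thus not shown to be a difference between these ages.

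Age within each genotype was compared as 4 months minus 1 month. In normal retinas no member passed limma's test, as no probe set did (0%), and Chst3 alone of the members had an unadjusted p under 0.05 (92 of all 1246 probe sets had). In P347S retinas Chsy1 fell by 0.56 ± 0.12 (1.47-fold, adjusted p = 0.0166), where 2.65% of all probe sets passed (1.12% lower). All P347S arrays of 4 months (9.94 to 10.07) lay below those of 1 month (10.45 to 10.72), as for 6.74% of probe sets. This call was lost without P347S 1 month replicate 3 (adjusted p = 0.0768) or P347S 4 months replicate 2 (0.0582). The rise of Ust in P347S retinas with age, 0.49 ± 0.13, missed the threshold (adjusted p = 0.0546) and passed it in 12 of 36 alternatives.

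Differences between members within the same array were described as well, for pairs chosen after their values were seen, and without a test. Signals of different probe sets do not give the ratio of their transcripts, so only the change of such a difference between groups can be read. Chst11 minus Chst3 was -1.45, -1.51 and -1.42 in normal and -1.46, -1.29 and -1.03 in P347S arrays at 1 month, which overlapped. At 2 months it was -2.29 to -2.14 in normal and -1.52 to -1.30 in P347S arrays, at 3 months -2.09 to -2.04 against -1.25 to -0.67, and at 4 months -2.20 to -1.98 against -1.04 to -0.85. The P347S mean minus the normal mean of this quantity was 0.20 at 1 month and 0.82, 1.06 and 1.14 at the later ages. Csgalnact1 minus Csgalnact2 shifted by -0.01, 0.22, 0.57 and 0.79 over the same ages. Its genotypes did not overlap at 3 months (-1.05 to -0.92 in normal, -0.71 to -0.21 in P347S) or 4 months (-1.42 to -1.24 and -0.74 to -0.29). In each pair 1 member was higher and the other lower in P347S retinas over the 4 ages, so the shifts only combine differences given above. The share of other pairs without overlap was not computed.

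**Figure D3:**
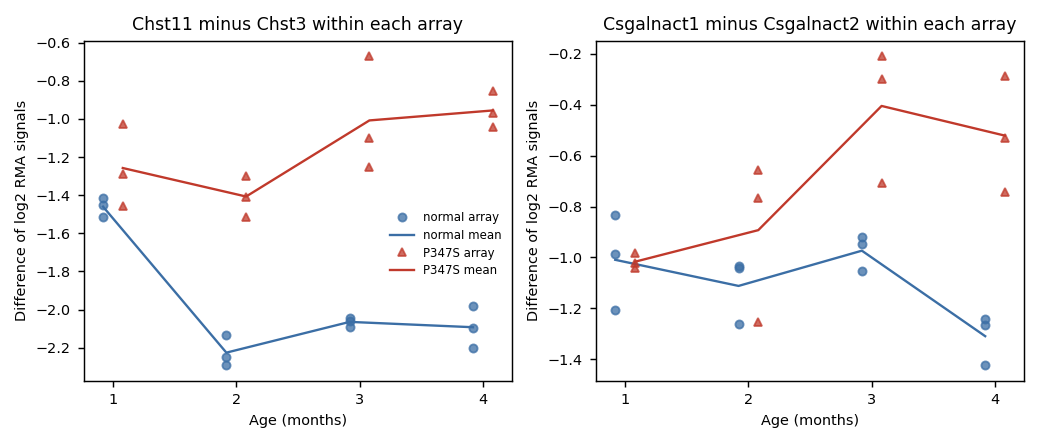
Within-array difference of log2 RMA signals (vertical axis) of Chst11 minus Chst3 and of Csgalnact1 minus Csgalnact2 against age in months, with 1 point per array and lines through the means of 3 arrays. The P347S arrays of the first pair lie above the normal arrays from 2 months on, and those of the second pair at 3 and 4 months. The zero of either axis has no meaning of its own.

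Across the 24 arrays Chsy1 and Csgalnact2 followed each other most closely among the members (Pearson r = 0.92, and 0.86 after the group means were taken out). Csgalnact1 went with Ust (0.78, within groups 0.40) and with Chst11 (0.72, within groups 0.75). These correlations are descriptions, since the arrays share genotype, age and normalization. Outside the 9 members Jag1, a Notch ligand, was the named gene most like both Csgalnact2 (0.87) and Chsy1 (0.85), followed for both by Arfgef1 (0.82 and 0.83) and Armc1 (0.76 and 0.79). Csgalnact1 was closest to both probe sets of Shh, the hedgehog ligand (0.93 and 0.91), and to Chst10 (0.91), a sulfotransferase of the HNK-1 epitope. With the group means taken out, Csgalnact2 and Chsy1 gave 0.68 and 0.77 with Jag1, 0.46 and 0.45 with Arfgef1, and 0.68 and 0.59 with Armc1. Csgalnact1 then gave 0.88 and 0.77 with Shh and 0.88 with Chst10.

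Chst3 was closest to St6galnac2 (0.82), Fryl (0.79) and St3gal1 (0.76), of which the first and last are sialyltransferases. Ust was closest to Pgm2 (0.89), Arsb (0.88), a lysosomal sulfatase of chondroitin and dermatan sulfate, and B3galt1 (0.87). Chst11 was closest to B4galt5 (0.84), the chemokine Cx3cl1 (0.81) and the proteoglycan core protein Srgn (0.80). Chpf was closest to Bsg, Slc35c2 and Slc35a4 (0.88, 0.87 and 0.85), Chst12 to Ube2v1, Ncstn and Rbm42 (0.88, 0.85 and 0.84) and Chst7 to Fut4, Il20 and Ly75 (0.67, 0.66 and 0.61). All of these values are over 24 arrays. With the group means taken out, Chst3 gave 0.40, 0.56 and 0.67 and Ust 0.60, 0.53 and 0.37, in the same order. Chst11 then gave 0.73, 0.70 and 0.57, Chpf 0.93, 0.92 and 0.92, Chst12 0.88, 0.78 and 0.83, and Chst7 0.69, 0.67 and 0.50.

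**Figure D4:**
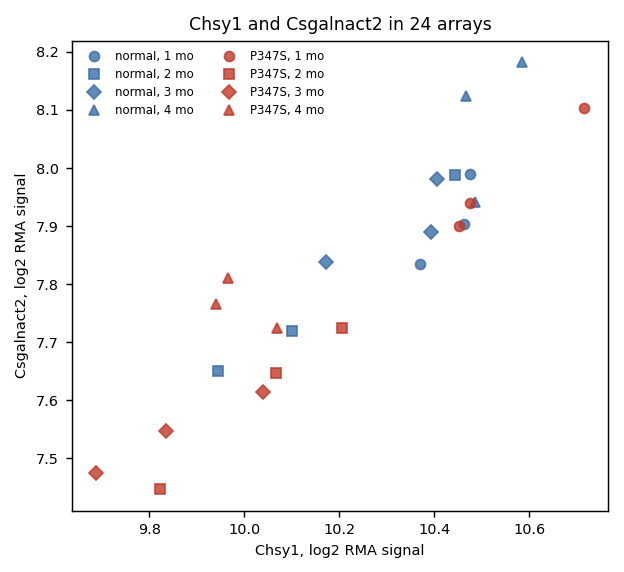
log2 RMA signal of Chsy1 (horizontal axis) and Csgalnact2 (vertical axis), with 1 point for each of the 24 arrays, by genotype and age. The arrays lie along 1 diagonal (Pearson r = 0.92), with the P347S arrays of 3 and 4 months below the normal arrays of those ages on both axes.

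The other genes of the pathway were counted over the 4 ages, 1 probe set a gene, against the same 22.6%. Of 9 listed genes of the linkage region 6 were measured and 2 fell. Xylt1, a xylosyltransferase that starts the linkage region on the core protein, fell by 0.16 ± 0.04 (limma, adjusted p = 0.00696), and B4galt7, which adds its first galactose, fell by 0.13 ± 0.04 (adjusted p = 0.0196). The median over the 6 was -0.02, against -0.03 over all probe sets. B4galt7 did not pass without the 3 arrays with high Grifin (-0.13, adjusted p = 0.0651), nor with each array centred on its median (-0.11, 0.128).

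Of 9 listed other chondroitin and dermatan sulfate enzymes 6 were measured and 2 rose, Dsel, a dermatan sulfate epimerase (0.24 ± 0.07, limma, adjusted p = 0.0170), and Chst9, a sulfotransferase of N-acetylgalactosamine (0.22 ± 0.06, adjusted p = 0.0157). Neither passed without the 3 arrays with high Grifin (0.22 and 0.20, adjusted p = 0.0546 and 0.0577) or after quantile normalization (0.13 and 0.12, 0.126 and 0.218), and the median over the 6 was 0.02. Of 12 genes for precursors and the sulfate donor 7 were measured and 1 rose, Papss1, a synthase of the sulfate donor PAPS (0.18 ± 0.04, adjusted p = 0.00583). The median over the 7 was 0.03. The other PAPS synthase, Papss2, did not pass (-0.22 ± 0.11, adjusted p = 0.166), and was called lower after quantile normalization (-0.29, adjusted p = 0.0427). At single ages it was called at 2 months only, lower (-0.97, limma, adjusted p = 0.02). Its differences at 1, 3 and 4 months were -0.33, 0.18 and 0.23.

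Of 14 genes that degrade the chains 8 were measured, and 2 lysosomal enzymes rose, Arsb (0.38 ± 0.06, limma, adjusted p = 8.11e-05) and the beta-glucuronidase Gusb (0.28 ± 0.08, adjusted p = 0.0135). Gusb did not pass after quantile normalization (0.16, adjusted p = 0.0513), and 4 of the 8 passed with centred arrays. The median over the 8 was 0.10. Of 22 core proteins 16 were measured and 5 rose, with a median of 0.08. The 4 with the smallest p were Srgn, the serglycin of blood-derived cells (0.48 ± 0.09, adjusted p = 0.00045), Cd44, a hyaluronan receptor that can carry chains (1.01 ± 0.25, 0.00581), Ptprz1, a receptor phosphatase of glia (0.22 ± 0.06, 0.0101), and Spock3, a testican (0.29 ± 0.09, 0.022). The microglial markers given above rose in the same retinas, and their part in these values was not tested. Without the 3 arrays with a high Grifin signal 3 of the 16 passed, among them Srgn and Cd44 but not Ptprz1 (0.18, adjusted p = 0.0616) or Spock3 (0.23, 0.103). After quantile normalization 3 were higher and 1 lower, the brain proteoglycan Bcan (-0.20, adjusted p = 0.00211).

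All 5 listed Ext and Extl genes of heparan sulfate, which is built on the same linkage region, were measured. Ext1 fell by 0.61 ± 0.12 (limma, adjusted p = 0.000725) and its partner Ext2 by 0.14 ± 0.04 (0.0276), while Extl2 rose by 0.26 ± 0.05 (0.000762). The call of Ext2 was lost without the 3 arrays with high Grifin (-0.13, adjusted p = 0.0840). Of the 7 other sulfotransferases of the Chst family on the list all were measured and 3 rose, Chst10 (0.26 ± 0.06, adjusted p = 0.00159), Chst2 (0.30 ± 0.07, 0.00282), which sulfates N-acetylglucosamine, and Chst9, which is also on the list of other chondroitin enzymes.

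**Figure D5:**
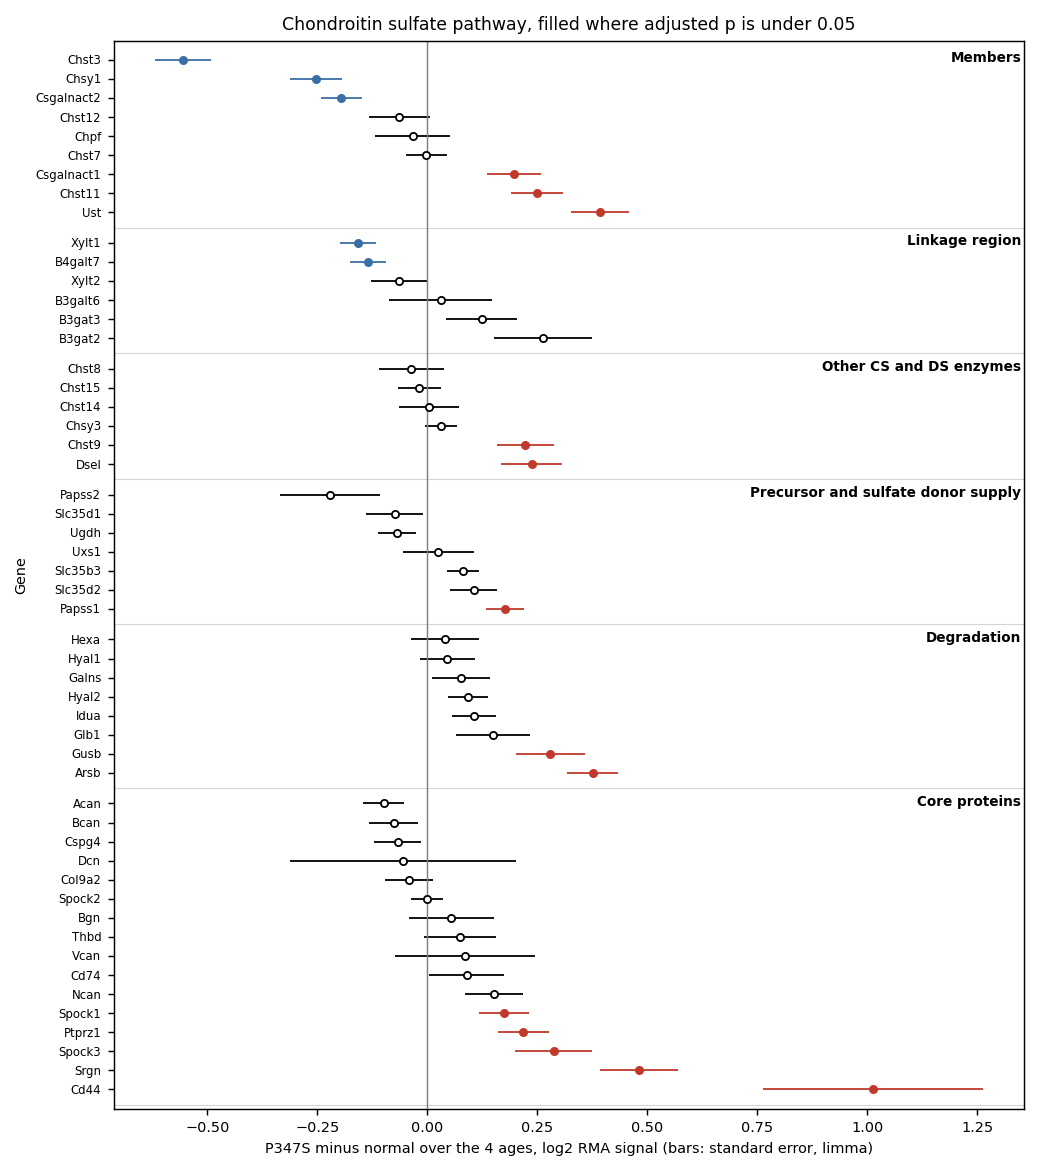
P347S minus normal difference of log2 RMA signal over the 4 ages (horizontal axis) for the 9 members and the other measured genes of the pathway, with bars for limma's standard error, in colour where the adjusted p was under 0.05. Among the members 3 lie to the left and 3 to the right, 2 linkage region genes lie to the left, and the called genes of the other 4 groups drawn lie to the right.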

How the data were processed

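Total retinal RNA was labelled with biotin and hybridised to a focused Affymetrix array. The authors deposited log2 signals, made with RMA per the submitters' processing notes. Its version, background step and any filter are not given in the sources used here. Nothing was scaled again. The scale was read from the values (1.90 to 14.2). Transcript identifiers in probe set names were matched to RefSeq genes (GRCm38.p6): 963 of 1246 probe sets matched 909 genes.

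Groups came from the labels. All probe sets were fitted in R 4.3.3 with limma 3.58.1 (a mean for each of 8 groups, default eBayes, 16 residual and 4.37 prior degrees of freedom), 2-sided, with Benjamini-Hochberg adjustment per contrast (threshold 0.05). Errors are limma's standard errors. With 3 arrays a group an exact test cannot go below p = 0.1, and single-age calls therefore depend on the variance model of limma; few arrays limit the precision. Where a gene had several probe sets, the brightest counted.

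The members, lists and alternatives were chosen with earlier results of these data known. Named genes were all members, up to 4 called genes with the smallest p in each list, and the 3 most like named probe sets outside the members by Pearson correlation for each member. Alternatives were centred arrays, quantile normalization again, filters at the 25th percentile or the median of mean signal, and an intensity trend or robust eBayes. Further ones were array weights, only the groups compared, a replicate block, a threshold of 0.01, and each array left out. Averaged probe sets per gene were run only for the other pathway lists over the 4 ages and not for the members. Added after seeing the data were fits without 3 arrays with log2 Grifin above 10, with Grifin and Dcn as covariates, and of the 2-month arrays alone with a block. Tested on simulated data of 1246 probe sets, the fit over the 4 ages recovered 94% of shifts of 0.25 on the log2 scale and the fit at 4 months 29.9% of those and 91% of shifts of 0.5. The simulated noise was independent between arrays and probe sets, and each shift was equal at all 4 ages. These shares therefore need not hold for members whose differences varied with age. Equal replicate numbers did not pair the arrays over the series (r above 0.1 in 3 of 12 pairs), but all 3 pairs of the 2-month arrays were above it (0.33, 0.66 and 0.25), so the paired value is given for Chst3 at that age. No 2 arrays held identical values. Protein sequences were not used here.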

Additional observations from a re-analysis of the deposited data

How the results depend on the processing

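Of 2584 values of members under the alternatives 2526 kept their side of the threshold, 36 lost a call and 22 gained one. The sign differed from the reported one in 80, none of them called in either fit. Many of the values could hardly change sides. For a single age, leaving out an array of another age kept the estimate and altered only the spread. Most values also belong to comparisons in which the member was not called. The total of 2526 is therefore no measure of how stable the calls are. The 6 calls over the 4 ages stayed 6 under each array left out (6 to 6) and were 5, without Csgalnact1, after quantile normalization and at an adjusted p under 0.01, and the counts at the single ages moved more. Without 1 array each, the count ran from 0 to 1 at 2 months, 1 to 4 at 3 months, 3 to 6 at 4 months and 0 to 2 for age within P347S retinas (reported as 1, 3, 6 and 1). With only the groups compared, which leaves fewer arrays, it was 0 at 2 months, 1 at 3 months, 3 at 4 months, 1 for the difference at 4 months minus 1 month and 2 for age within P347S retinas. At an adjusted p under 0.01 it was 1 at 3 months, 3 at 4 months and 0 for age within P347S retinas. With array weights 5 members passed for the difference at 4 months minus 1 month, 1 (Chsy1) for its change over all ages and 3 for age within P347S retinas, where quantile normalization and both filters on dim probe sets gave 2, Chsy1 and Ust. The cause was not tested. At 2 months none passed without the 3 arrays with a high Grifin signal (0), with the covariates (0), or with the 6 arrays paired by replicate number (0).

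The replicate block changed no member call over the 4 ages (6) or at 4 months (6) in the fit of all arrays. Over all probe sets the calls at 2 months ran from 1 to 68 over settings other than leaving out 1 array (43 as reported), those at 3 months from 40 to 185 (150), those at 4 months from 91 to 240 (161) and those over the 4 ages from 150 to 333 (282). Of the calls over the 4 ages 61.0% were higher, against 50.6% after quantile normalization and 70.3% with centred arrays.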

Other observations

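The 4 measured hyalectans, the large chondroitin sulfate proteoglycans of neural matrix, were chosen for this description after their values were seen, and none was called over the 4 ages by limma as reported. At single ages Ncan was called at 4 months, higher by 0.41 (adjusted p = 0.0401), and Acan, Bcan and Vcan were called at none. Acan, the aggrecan of perineuronal nets, differed by -0.10 ± 0.05 (P347S minus normal, adjusted p = 0.132), Ncan by 0.15 ± 0.07 (0.104) and Vcan by 0.09 ± 0.16 (0.724). The mean signals of Acan and Vcan (4.43 and 3.91) lay below the median probe set (5.26). As for Chst7, a low or absent transcript cannot be told from background there. Bcan differed by -0.08 ± 0.06 (0.337), and after quantile normalization by -0.20, which passed (0.00211).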
